A study of Mus musculus with 29 samples.

Results

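The 7 genes described here encode transcription factors of myeloid cells: Spi1, Cebpa, Cebpb, Runx1, Ikzf1, Fli1 and Etv6. They were named by symbol, and each was given a window of its gene body and 20 kb on each side. The windows are 7 of the 21884 protein-coding gene windows of the mouse annotation, and they were read in peak lists of 25 libraries. Spi1 encodes PU.1, an ETS-family protein that opens chromatin in myeloid cells and that binds DNA together with IRF8 at composite sites. Cebpa and Cebpb encode C/EBP factors of granulocytes and macrophages. Runx1 and Ikzf1 (Ikaros) act in early blood cells, and Fli1 and Etv6 are further ETS proteins, Etv6 being mostly a repressor. IRF8 is an interferon regulatory factor that binds DNA weakly alone and is needed for normal microglia, the resident macrophages of the brain.

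The assay was CUT&RUN, in which an antibody directs micrococcal nuclease to cut out bound chromatin. IRF8 was profiled with an anti-GFP antibody in female IRF8-EGFP mice, whose IRF8 carries a fluorescent tag. The groups were microglia at postnatal day 9 (P9, 4 libraries), P14 (3), adult microglia (3) and peritoneal macrophages (3). PU.1, H3K27ac (a mark of active promoters and enhancers) and H3K4me1 (a broader enhancer mark) were each profiled in 2 WT and 2 IRF8KO libraries of adult female microglia. The growth protocol speaks only of WT and IRF8KO brains at 3 months of age, for the younger and peritoneal libraries too, and the source label of the peritoneal libraries also reads sorted microglia. The labels do not say how the IRF8KO allele was made or whether libraries came from separate animals, so the p-values measure the spread between libraries. They give 4 of 7 P9 libraries and 2 of 3 KO H3K27ac libraries as provided.

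The authors' headers give 7250496 to 24705885 fragments per library. The IRF8 lists held 1168 to 2068 regions at P9, 7931 to 19238 at P14, 17048 to 29661 in adults and 9787 to 23162 in peritoneal macrophages. Replicate 3 of the adult and of the peritoneal IRF8 libraries was in batch 2, and the other replicates of both were in batch 1. Peritoneal replicate 3 stood apart, sharing 15.1% and 14.3% of merged regions in the 7 windows with replicates 1 and 2, which shared 54.1% with each other. KO H3K27ac replicates shared 17.1%, and replicate 2 listed 31524 regions against 88400 in replicate 1. Among microglial markers, Sall1 and Tmem119 carried IRF8 regions in 3 of 3 adult and 0 of 3 peritoneal libraries, while P2ry12 and Cx3cr1 carried them in every IRF8 library. Of 5 peritoneal markers, Gata6, Icam2, Selp and Timd4 had IRF8 in 3 of 3 peritoneal libraries and Prg4 in 2, but Timd4 also in 3 of 3 P14 and 3 of 3 adult libraries, and Gata6 in 1 of each. Of 3 neuronal, 3 oligodendrocyte and 3 neutrophil markers, 2 each (Neurod1 and Slc17a7, Olig2 and Sox10, Mpo and Ly6g) had no IRF8, PU.1 or H3K27ac region in any library. The others did: Rbfox3 had IRF8 in 3 adult libraries, Mog in 2 adult and 3 peritoneal, and S100a8 in 3 peritoneal. Astrocyte Slc1a2 had IRF8 in 3 of 3 adult libraries, Aldh1l1 in 1 and Gfap in 0. The part of other cells in the results was not tested.

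Spi1 (ENSMUSG00000002111.8) lies at chr2:91082390-91115756, Cebpb (ENSMUSG00000056501.3) at chr2:167688915-167690418 and Cebpa (ENSMUSG00000034957.10) at chr7:35119293-35121928. Etv6 (ENSMUSG00000030199.16) lies at chr6:134035700-134270158 and Ikzf1 (ENSMUSG00000018654.17) at chr11:11685003-11772926. Runx1 (ENSMUSG00000022952.17, chr16:92601466-92826149) and Fli1 (ENSMUSG00000016087.13, chr9:32422204-32542861) are on the minus strand. Windows ran from 41.5 kb for Cebpb to 274 kb for Etv6.

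Regions below are given by their distance from the start of the gene's main transcript, positive in the direction of transcription, on GRCm38 (mm10). Overlapping peaks of a group's libraries were merged, and a merged region found in 2 or more of them is called a consensus region. The percentile of a region is its rank within its own list by the authors' −log10 p, and the fold is the authors' enrichment over an IgG control. The sequences that follow show 200 bp around the summit of the strongest WT PU.1 peak in the strongest adult IRF8 region of each gene that also carries PU.1, read on the plus strand from RefSeq's copy of the assembly. Cebpb had no such region, so the strongest adult IRF8 summit is shown. Capitals mark matches on either strand to GAGGAA (a PU.1 core), TGTGGT (RUNX), TTGC followed after any 2 bases by AA (C/EBP), GGAA followed after any 2 bases by GAAA (composite ETS-IRF) and GAAA followed after any 2 bases by GAAA (interferon response).
Spi1, intron, chr2:91084461-91084660: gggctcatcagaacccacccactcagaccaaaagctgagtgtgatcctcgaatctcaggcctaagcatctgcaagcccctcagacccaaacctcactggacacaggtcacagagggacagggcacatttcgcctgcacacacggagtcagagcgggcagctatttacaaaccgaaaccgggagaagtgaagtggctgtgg
Ikzf1, upstream, chr11:11667508-11667707: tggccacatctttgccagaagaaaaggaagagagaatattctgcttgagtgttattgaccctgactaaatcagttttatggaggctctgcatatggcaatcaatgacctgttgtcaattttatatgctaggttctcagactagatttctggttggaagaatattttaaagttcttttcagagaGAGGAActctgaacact
Fli1, intron, chr9:32516888-32517087: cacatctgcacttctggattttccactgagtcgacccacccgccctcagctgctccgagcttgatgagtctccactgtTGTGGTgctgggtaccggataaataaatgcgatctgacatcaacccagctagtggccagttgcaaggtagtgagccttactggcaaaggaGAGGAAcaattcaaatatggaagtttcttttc
Etv6, intron, chr6:134220439-134220638: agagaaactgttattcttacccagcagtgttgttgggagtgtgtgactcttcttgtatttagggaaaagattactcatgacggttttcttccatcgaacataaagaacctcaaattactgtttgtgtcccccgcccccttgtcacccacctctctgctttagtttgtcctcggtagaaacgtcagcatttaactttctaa
Runx1, distal promoter, chr16:92826168-92826367: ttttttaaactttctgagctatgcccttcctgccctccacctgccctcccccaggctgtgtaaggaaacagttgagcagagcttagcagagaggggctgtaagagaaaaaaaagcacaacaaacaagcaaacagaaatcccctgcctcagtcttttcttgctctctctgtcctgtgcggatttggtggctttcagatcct
Cebpa, upstream, chr7:35098531-35098730: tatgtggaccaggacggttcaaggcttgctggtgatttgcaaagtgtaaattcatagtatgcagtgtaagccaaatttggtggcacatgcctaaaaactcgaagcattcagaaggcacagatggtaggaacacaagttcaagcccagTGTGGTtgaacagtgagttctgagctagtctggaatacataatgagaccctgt
Cebpb, downstream, chr2:167697848-167698047: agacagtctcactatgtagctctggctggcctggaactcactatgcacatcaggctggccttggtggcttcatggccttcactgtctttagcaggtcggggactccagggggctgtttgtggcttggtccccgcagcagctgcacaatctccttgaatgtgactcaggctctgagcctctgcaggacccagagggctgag

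The PU.1 core stands in the Ikzf1 and Fli1 windows, and the RUNX sequence in those of Fli1 and Cebpa. The windows of Spi1, Runx1, Etv6 and Cebpb held none of the 5 sequences. Over all 23 WT PU.1 consensus regions of the 7 genes, 10 summit windows (43.5%) held the PU.1 core, against 28.9% of the 5358 windows of all WT PU.1 regions. All 4 Ikzf1 windows held it, 4 of 9 in Etv6, 2 of 5 in Fli1 and none of the 3 in Spi1. The composite sequence was in 0 of these 23 windows (4.09% of all) and in 2 of the 52 adult IRF8 windows (2.85% of all), both in Etv6. The RUNX sequence was in 2 of 23 PU.1 windows (14.8% of all) and the C/EBP sequence in 1 (9.11% of all). A match is a match of letters only.

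The stage comparison asked how IRF8 occupancy at these genes differs between P9, P14 and adult microglia. IRF8 regions were few at P9 and many in adults. The 7 windows together held 4 to 11 regions per P9 library, 25 to 53 at P14 and 53 to 83 in adults. Spi1 had 1, 0, 0 and 0 regions in the P9 libraries, 3, 5 and 4 at P14, and 4, 8 and 8 in adults. Every adult library thus lay above every P9 library at Spi1. Fli1 had 2, 1, 1 and 3 at P9, 6, 8 and 7 at P14, and 8, 12 and 9 in adults, with no overlap between neighbouring stages except at the shared value of 8. Etv6 had 3, 3, 5 and 4 at P9, 13, 22 and 10 at P14, and 21, 34 and 21 in adults, P14 replicate 2 reaching into the adult range. Etv6 was the only one of the 7 with at least 3 regions in every P9 library.

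The other 4 genes began near 0. Runx1 had 0, 0, 2 and 1 regions at P9, 2, 7 and 2 at P14, and 9, 7 and 7 in adults. Ikzf1 had 0, 0, 3 and 0 at P9, 1, 7 and 2 at P14, and 8, 12 and 7 in adults. For both, P14 overlapped P9 while adults lay above P9. Cebpb had no region in any P9 library, 1 in P14 replicate 2 alone, and 3, 3 and 1 in adults. Cebpa had no region at P9, 1, 3 and 0 at P14, and 1, 7 and 0 in adults, so its adult libraries overlapped the P9 libraries. In all, 6 of the 7 genes had every adult library above every P9 library, against 47.8% of the windows tested.

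**Figure D1:**
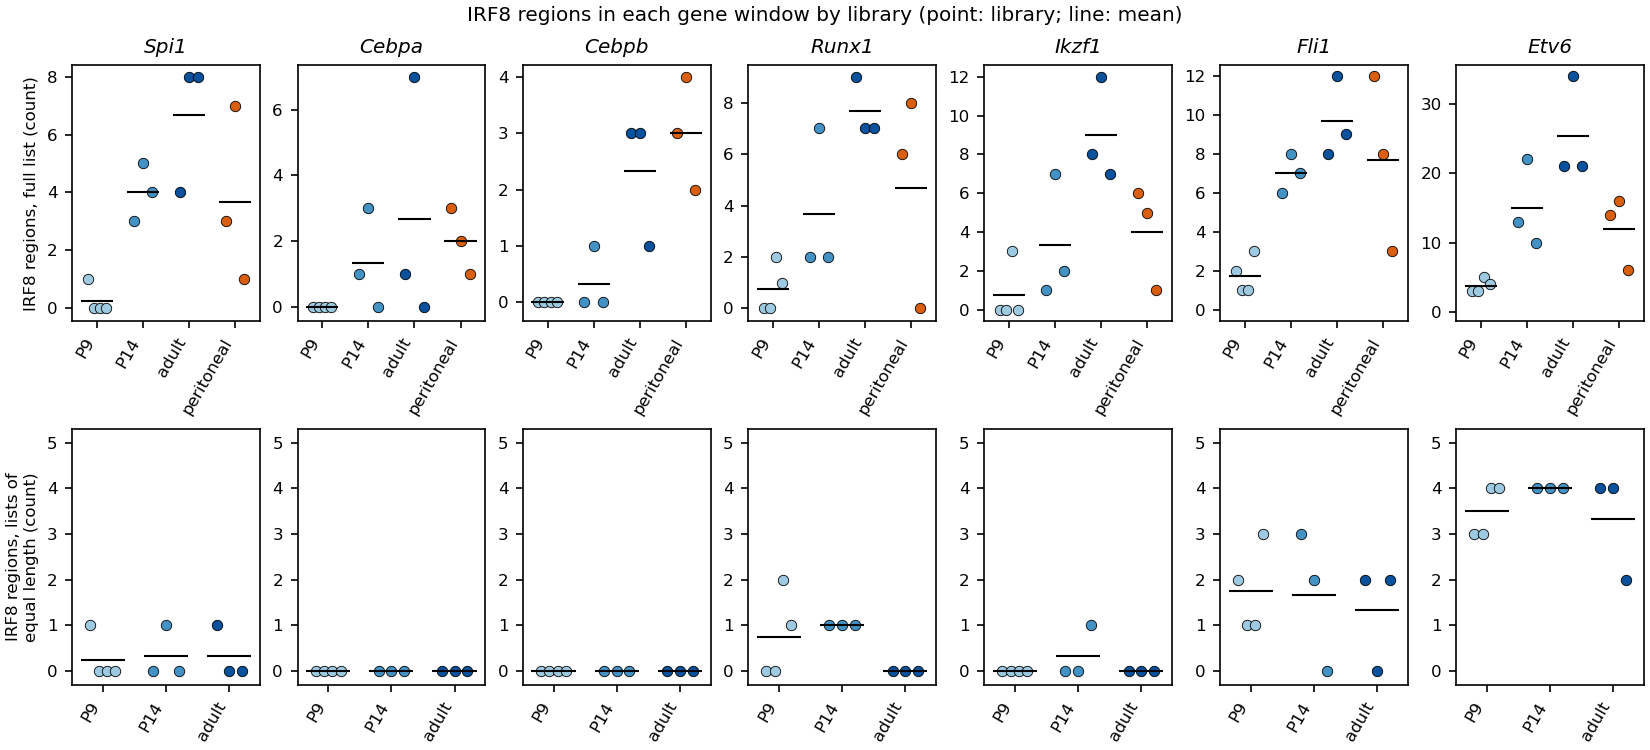
Number of IRF8 regions in the window of each gene by library (points) with group means (lines), from the full lists (top row, with peritoneal macrophages) and from the stage lists cut to their 1168 regions of highest −log10 p (bottom row). Means are higher in adults than at P9 for all 7 genes in the full lists (6 called by the test), while with equal lists Etv6 holds 3 to 4 regions at P9 and 2 to 4 in adults.

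An exact two-sided Jonckheere-Terpstra test of the ordered stages over 4200 assignments, run on the 16425 of 21884 protein-coding gene windows with an IRF8 region in at least 1 stage library, with Benjamini-Hochberg adjustment, called 6 of the 7 genes higher at later stages. The background was high: 7564 windows, 46.1% of those tested, were called in that direction and 0 in the other, with 8622 at an unadjusted p of 0.05 or less, all of them higher later. With all 21884 windows tested, the same 6 genes and 5863 windows (26.8%) were called. Fli1 had the largest net number of ordered library pairs, 32 of 33 (exact p = 0.000714, adjusted p = 0.0156). Spi1 followed with 30 (exact p = 0.00143, adjusted p = 0.0173). Etv6 and Runx1 each had 29 (adjusted p = 0.0198 and 0.0211, exact test), Ikzf1 28 (0.0221) and Cebpb 24 (0.0343). Cebpa, with 17, was not called (exact p = 0.0786, adjusted p = 0.127). The calls depended on the window. With 50 kb on each side the same exact test called all 7, Cebpa at an adjusted p of 0.0238, and 62.5% of windows. With the gene body alone it called 5, without Cebpa and Cebpb, and 18.4% of windows. In the main setting the median was 29 net pairs over the 7 genes and 20 over all windows tested. Leaving out adult replicate 2, or P9 replicate 1, 2 or 4, left only Spi1 and Fli1 of the 7 called, and 4 genes were called without P9 replicate 3. The share of all windows called was then 12.2% without that adult library and 9.74% to 10.8% without 1 P9 library. Keeping peaks with a −log10 p of at least 10 left 3 called, Cebpb, Ikzf1 and Etv6, against 16.8% of windows.

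List length moved with stage. Each of the 10 stage lists was next cut to its 1168 regions of highest −log10 p. Cebpa and Cebpb kept no region in any of these lists and were not tested. None of the other genes and 0 of 3897 windows were called by the same exact test. Counts in the cut lists were small and often tied, which limits the test. At an unadjusted p of 0.05 or less, 89 windows were then higher and 60 lower at later stages, none of them among the 7. Etv6 then held 3, 3, 4 and 4 regions at P9, 4 in each P14 library and 4, 4 and 2 in adults. Fli1 held 2, 1, 1 and 3, then 3, 2 and 0, then 2, 0 and 2. Spi1 was left with 1 region in each of P9 replicate 1, P14 replicate 2 and adult replicate 1, and Cebpa and Cebpb with none anywhere. The IgG control also differed between P9, P14 and adult, so stage and control cannot be told apart. As a share of its list, the 7 windows took 0.342% to 0.641% at P9, 0.275% to 0.327% at P14 and 0.236% to 0.317% in adults.

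Sites listed at P9 recurred at the later stages. The 7 genes had 7 P9 consensus regions, 4 in Etv6, 2 in Fli1 and 1 in Runx1, and every one had a peak in all 3 P14 and all 3 adult libraries (84.2% of P9 regions genome-wide). Of their 26 P14 consensus regions, 25 overlapped an adult consensus region (92.6% genome-wide), and 22 had a peak in all 3 adult libraries (67.7%). By adulthood there were 52: 22 in Etv6, 9 in Fli1, 6 each in Runx1 and Ikzf1, 5 in Spi1 and 2 each in Cebpa and Cebpb. Per 100 kb of window, Etv6 had 8.02, Spi1 6.82, Fli1 5.60, Cebpb 4.82, Cebpa and Ikzf1 4.69 each and Runx1 2.27. Over all windows the median was 0.356 and the mean 1.57. The share of gene windows with a lower density was 74.4% for Runx1, 90.6% for Cebpa and Ikzf1, and up to 97.9% for Etv6. Read backwards, 7 of the 52 overlapped a P9 consensus region (7.76% genome-wide) and 24 a P14 one (43.2%). All 3 adult libraries listed 34 of the 52 (50.8%). By position, 35 lay in introns of the 7 genes and 9 covered an annotated start of one of them. H3K27ac overlapped 48 of the 52 (81.8% genome-wide) and H3K4me1 50 (91.3%).

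**Figure D2:**
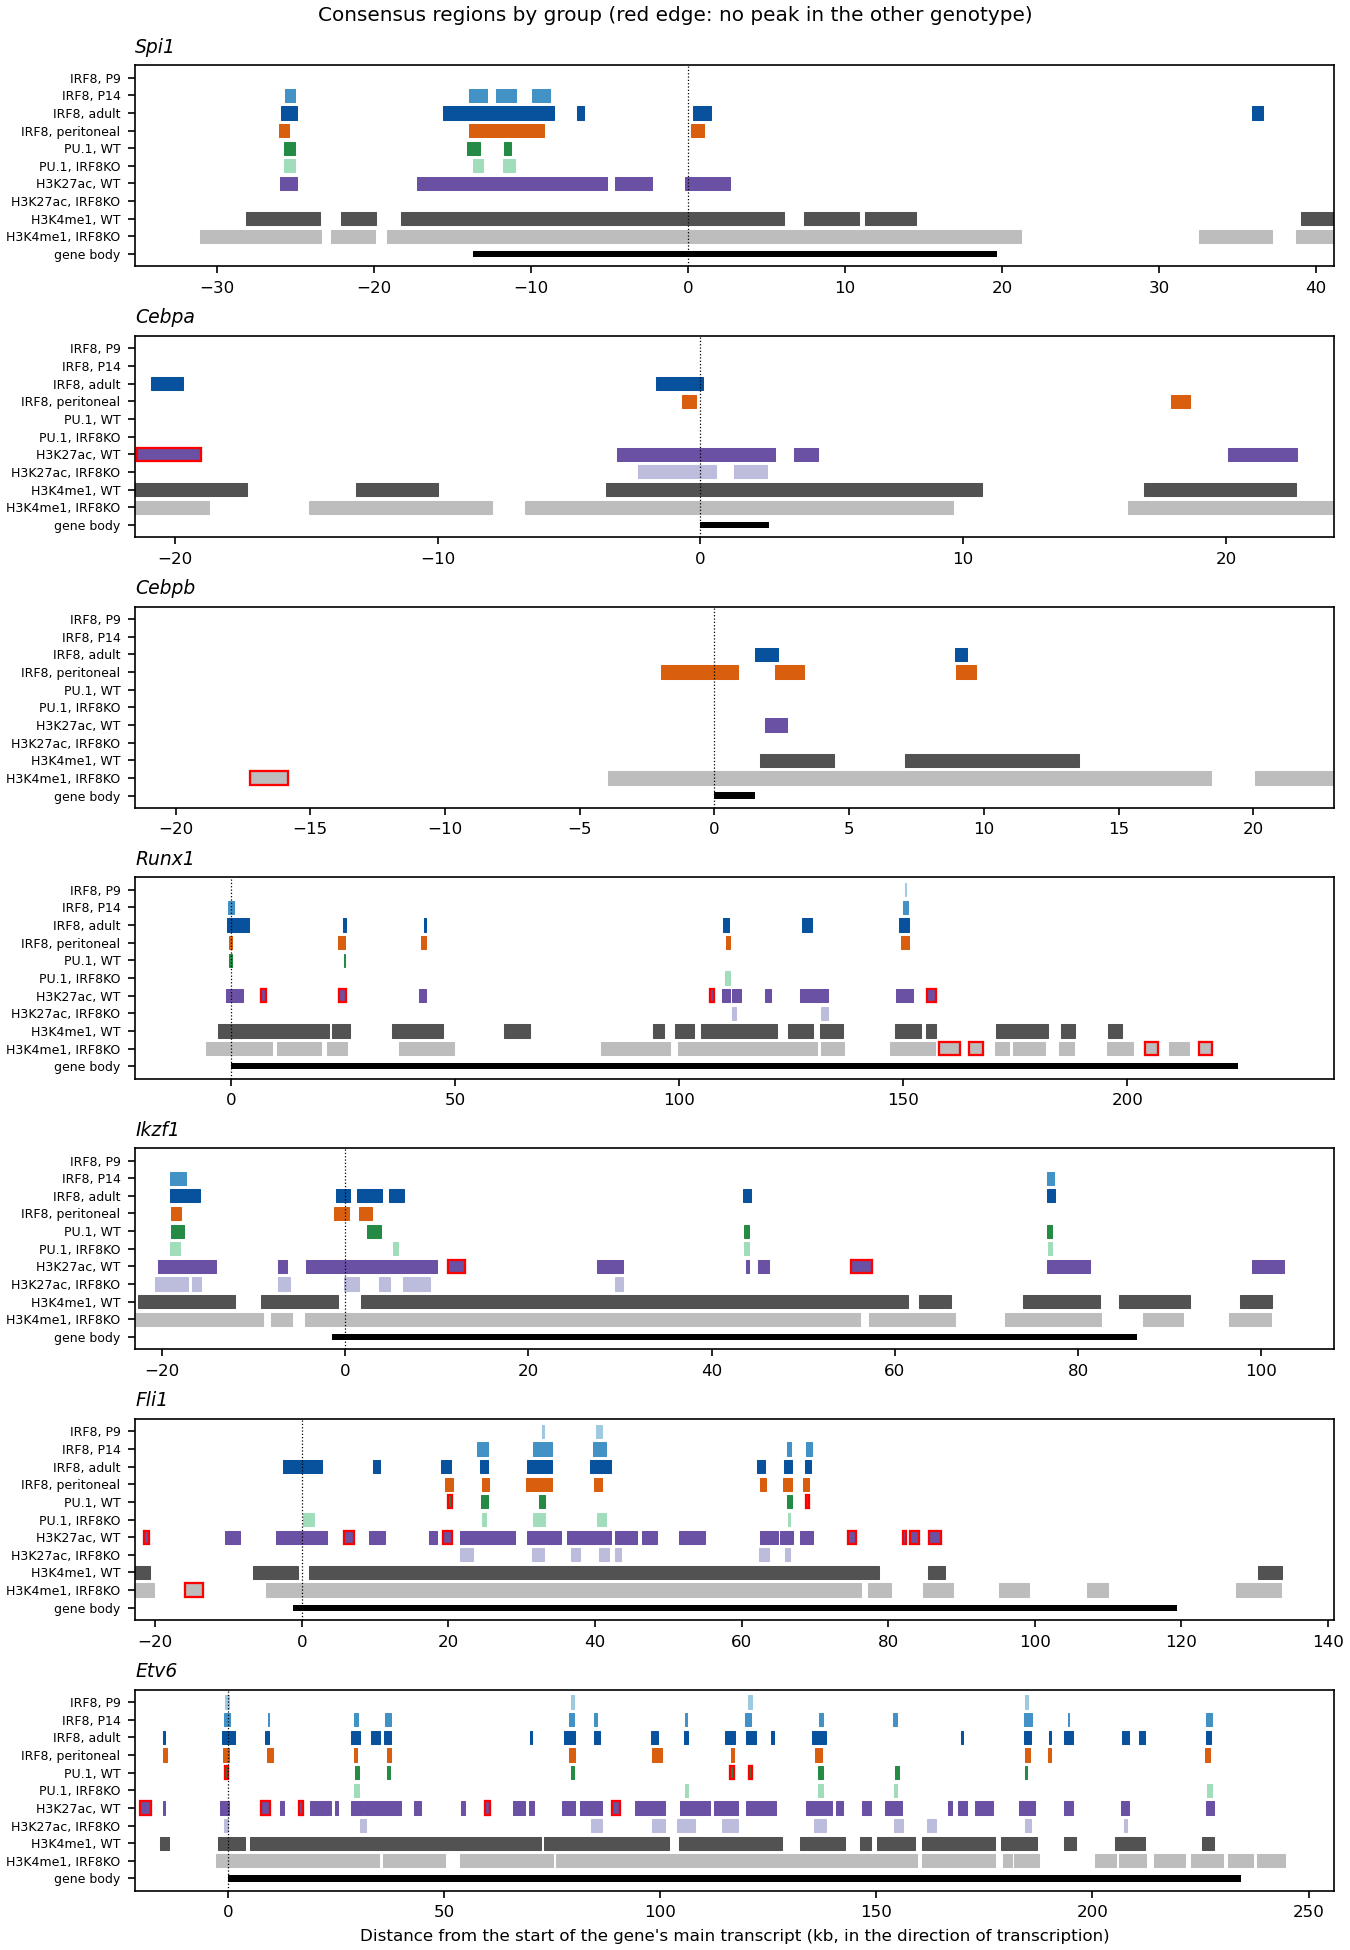
Position of the consensus regions of each group along the 7 windows, in kb from the start of the main transcript in the direction of transcription; black bars are gene bodies and a red edge marks a region with no peak in the other genotype. The P9 regions of Etv6, Fli1 and Runx1 recur at P14 and in adults, and red-edged PU.1 regions are in Fli1 and Etv6.

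Etv6 held the strongest IRF8 site of the 7 genes, an intronic region at +185 kb (chr6:134219891-134221549). It lies closer to the start of Bcl2l14 than to that of Etv6. Its fold in each list was 6.61, 8.76, 8.29 and 5.63 in the P9 libraries, 17.9, 21.3 and 17.6 at P14, and 29.0, 25.9 and 20.7 in adults. Its percentiles were 71.6, 91.9, 90.1 and 58.4 at P9, 99.0, 99.2 and 99.6 at P14, and 99.3, 99.5 and 99.7 in adults. Neither folds nor percentiles from lists of different length can be read as a change. In peritoneal macrophages 2 libraries listed it, with folds of 5.26 to 5.81 and a mean percentile of 72.1. The Etv6 promoter region (chr6:134034268-134037219) was absent from P9 replicate 1 alone among the 13 IRF8 libraries, with adult folds of 21.3, 19.8 and 11.4. Another site, at +121 kb (chr6:134155647-134157962), was listed in all 4 P9, 3 P14 and 3 adult libraries, with adult percentiles of 97.2, 98.5 and 88.3. No peritoneal library listed that site.

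Fli1, which encodes an ETS activator of blood and endothelial genes, had its adult regions in a chain of introns. The strongest by mean percentile was at +24.8 kb (chr9:32516207-32517352), with adult folds of 17.1, 12.7 and 12.3. The region at +40.7 kb (chr9:32499457-32502270) was listed in every one of the 13 IRF8 libraries, P9 included, with adult folds of 13.2, 10.8 and 15.1. The region at +32.5 kb was less even, at fold 21.8, 14.1 and 4.48 in adult replicates 1, 2 and 3. All 9 adult regions of Fli1 had H3K27ac in both WT libraries and a peak in at least 1 peritoneal library.

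At Spi1 itself, IRF8 covered the stretch upstream of the main start where the known upstream enhancer of the gene lies. The adult lists merged there into 1 region of 7069 bp at −12.1 kb (chr2:91080482-91087550), with folds of 17.6, 14.4 and 6.45 in replicates 1 to 3. The P14 lists split the stretch into regions at −13.4, −11.6 and −9.38 kb, and 1 P9 library listed a region in it, at fold 4.78 and percentile 31.6. A second coding transcript of Spi1 starts inside the stretch, so it is also an annotated promoter. A region at +0.89 kb, downstream of the main start and over another annotated start, was listed in all 3 adult libraries at folds of 5.71, 6.11 and 5.86 and in 1 of 3 P14 libraries. The 2 outer regions, at −25.4 kb and +36.3 kb, overlap Slc39a13 and Mybpc3, which share the window with Psmc3, so their assignment to Spi1 rests on the window alone.

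Runx1 and Ikzf1 had IRF8 both at their starts and far from them. In Runx1 an intronic region at +150 kb (chr16:92674986-92677027) was listed in 2 of 4 P9 libraries, with folds of 6.68 and 7.50, then at 12.9, 14.1 and 13.8 at P14 and 6.86, 6.15 and 3.86 in adults. Its percentiles were 96.0, 96.1 and 98.9 at P14 and 78.1, 87.8 and 45.6 in adults, in lists of different length, so the ranks cannot be read as a change. The distal promoter of Runx1 (chr16:92822226-92827242) ranked highest in adults, at percentiles of 86.1, 90.0 and 75.7. Ikzf1 had its strongest site upstream at −17.5 kb (chr11:11667316-11670613), with adult folds of 10.4, 11.5 and 9.38 and a peak in 1 P9 and 3 P14 libraries.

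The C/EBP genes, with the shortest windows, had the fewest adult regions, though per 100 kb Runx1 had fewer. Cebpa had an adult region at −20.3 kb (chr7:35098392-35099606), listed in all 3 adult libraries at folds of 7.26, 10.5 and 10.6 and in all 3 P14 libraries. It straddles the edge of the window, and the peak of adult replicate 3 and the WT PU.1 consensus region there lie just outside, which is why Cebpa counts 0 regions in that replicate and no PU.1 consensus region. Cebpb had adult regions at +1.92 kb and +9.15 kb, with folds of 4.67 to 7.26, both closer to the start of Tmem189 than to its own.

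**Figure D3:**
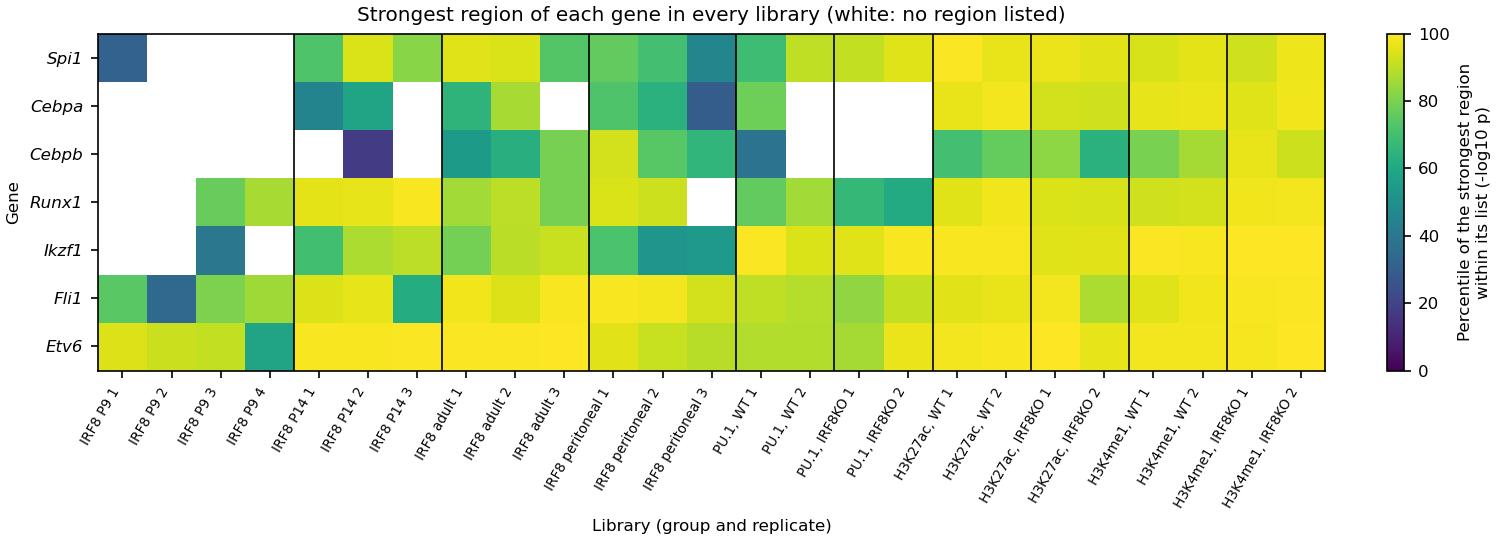
Within-list percentile of the strongest region in each gene window (rows) in each of the 25 libraries (columns); white means that no region was listed. Etv6 and Fli1 are filled in every IRF8 library, while Cebpa and Cebpb are white in all P9 libraries and in most PU.1 libraries.

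Peritoneal macrophages were compared with adult microglia to ask which sites the 2 macrophage types share. Of the 52 adult regions, 34 overlapped a peritoneal consensus region (65.4%; 39.5% of the 16934 adult regions genome-wide). None of the 35 peritoneal regions of the 7 genes lacked an adult peak (30.5% genome-wide). With 3 against 3 libraries the smallest exact p is 0.1, and no test was made. Peritoneal replicate 3 listed 14 regions in the 7 windows against 47 and 50 in replicates 1 and 2. In batch 1 alone the overlap was 31 of 47 (66.0%, against 40%). Without peritoneal replicate 1 or 2 it was 8 and 7 of 52 (15.4% and 13.5%, against 12.2% and 13.1% genome-wide), shares near the background, and requiring a peak in every library left 6 of 34 (17.6%, against 17.4% genome-wide).

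Of the 52 adult regions, 11 had no peak in any peritoneal library (39.9% genome-wide). Etv6 held 7 of them, Spi1 2, and Runx1 and Ikzf1 1 each. Those with the highest percentiles were the Etv6 site at +121 kb and the Ikzf1 site at +77.0 kb (chr11:11763055-11763892), whose adult folds were 9.34, 7.09 and 5.28. The Runx1 region at +128 kb (chr16:92696636-92698729), over the start of the proximal promoter, was also among them, with a mean percentile of 41.9. Cebpb had a peritoneal region at its own start. The region, at −0.565 kb (chr2:167686915-167689786), was listed in all 3 peritoneal libraries, at folds of 9.42, 5.20 and 4.05, in 1 of 3 adult libraries and in no P9 or P14 library. No WT microglial library listed H3K27ac over it. It also overlaps Tmem189.

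PU.1 was mapped in adult WT microglia at 23 consensus regions of these genes: 9 in Etv6, 5 in Fli1, 4 in Ikzf1, 3 in Spi1 and 2 in Runx1. Cebpa and Cebpb had none. Of the 23, 22 overlapped an adult IRF8 region (87.4% genome-wide), and of the 52 adult IRF8 regions 22 overlapped PU.1 (42.3%, against 27%). Taking WT PU.1 replicate 1 alone gave 35 of 52 for the latter count (67.3%, against 44.1%), and keeping peaks with a −log10 p of at least 10 gave 6 of 32 (18.8%, against 20%). The strongest PU.1 signal was in Ikzf1. At −18.3 kb the WT folds were 21.2 and 10.0, and at +76.9 kb they were 29.3 and 5.86. In Spi1, the PU.1 gene, PU.1 was listed at −25.4 kb with folds of 6.12 and 8.62, at −13.7 kb with 5.55 and 4.83, and at −11.5 kb with 6.56 and 5.52. The IRF8 site of highest percentile, Etv6 at +185 kb, had modest PU.1, at folds of 4.14 to 5.73 and a mean percentile of 43.6. The strongest IRF8 region and the strongest PU.1 region of the 7 genes were thus different ones.

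The genotype comparison asked which PU.1 and histone regions are absent when IRF8 is missing. With 2 against 2 libraries no exact test can pass 0.05, so counts are given beside the genome-wide share and without a test. Neither KO library listed 5 of the 23 WT PU.1 regions (21.7%, against 25.1% genome-wide), a share near the background, and 14 were listed in both (60.9%, against 52.1%). The lost ones were in Fli1 (2 of 5) and Etv6 (3 of 9). In Spi1 all 3 and in Ikzf1 all 4 regions had a peak in both KO libraries, and in Runx1 each of the 2 had one in a single KO library. None of the 18 KO regions lacked a WT peak (16.5% genome-wide). Of these 18, 6 overlapped no WT consensus region. A single WT library listed 5 of them, at +5.49 kb in Ikzf1, +0.886 and +40.9 kb in Fli1, and +106 and +227 kb in Etv6, while the one at +111 kb in Runx1 had a peak in each WT library but no WT consensus region. With WT replicate 1 alone, 24 of 50 regions were lost (48.0%, against 58.7%), and regions with no WT peak were 5 of 18 without WT replicate 1 (27.8%, against 31%) and 6 of 29 without KO replicate 1 (20.7%, against 58.2%).

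The 5 lost PU.1 regions all overlapped adult IRF8 regions, which makes 5 lost of the 22 that did (22.7%, against 23.2% genome-wide). In Fli1 they were at +69.0 kb (chr9:32472353-32472831), with WT folds of 7.42 and 7.94, and at +20.2 kb (chr9:32521069-32521725), with 6.83 and 3.35. In Etv6 they were at −0.337 kb in the promoter (chr6:134035061-134035665), with folds of 7.57 and 5.03, at +117 kb (chr6:134151933-134152764), with 4.04 and 4.83, and at +121 kb (chr6:134156237-134156863), with 5.66 and 6.76. The promoter and +121 kb regions were among the 4 Etv6 regions that already carried IRF8 at P9. H3K27ac remained listed in both KO libraries at the Etv6 promoter and in 1 KO library at +121 kb, and was listed in neither at the Fli1 +20.2 kb region. The PU.1 core stood in 2 of the 5 windows, both in Etv6 and shown here in capitals.
Etv6 promoter, chr6:134035274-134035473: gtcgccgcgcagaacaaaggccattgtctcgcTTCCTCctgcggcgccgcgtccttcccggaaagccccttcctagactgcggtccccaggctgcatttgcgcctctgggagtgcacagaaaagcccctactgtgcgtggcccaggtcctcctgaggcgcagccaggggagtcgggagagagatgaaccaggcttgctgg
Etv6 intron at +121 kb, chr6:134156268-134156467: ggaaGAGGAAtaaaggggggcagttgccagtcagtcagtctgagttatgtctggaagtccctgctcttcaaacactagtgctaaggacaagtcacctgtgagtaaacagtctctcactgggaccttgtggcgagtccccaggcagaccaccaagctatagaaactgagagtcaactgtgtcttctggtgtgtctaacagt

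Retained PU.1 regions are given by their within-list percentiles, which come from lists of different length and cannot be read as a change between genotypes. At the Ikzf1 +76.9 kb region they were 99.6 and 70.7 in WT and 95.2 and 98.9 in KO. At −25.4 kb in Spi1 they were 68.9 and 90.4 in WT and 91.0 and 95.3 in KO, and at −18.3 kb in Ikzf1 98.6 and 94.3 in WT and 81.7 and 80.6 in KO. Both genotypes had replicate 1 called at a q-value of 0.01 and replicate 2 at 0.05 with another control.

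**Figure D4:**
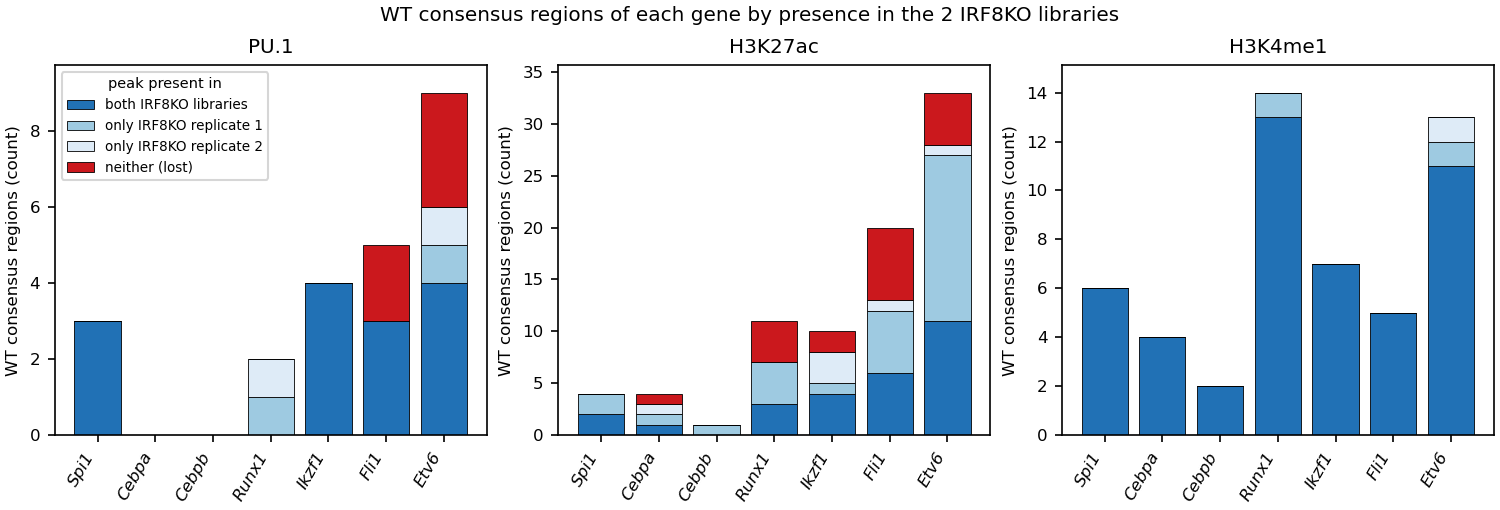
WT consensus regions of each gene by whether a peak was present in both, 1 or neither of the 2 IRF8KO libraries, for PU.1, H3K27ac and H3K4me1 (bars are counts and start at 0). PU.1 losses are in Fli1 and Etv6 alone, H3K27ac losses are in 5 genes, and no H3K4me1 region was lost.

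H3K27ac was listed at 83 WT consensus regions, of which 19 had no peak in either KO library (22.9%, against 34.0% genome-wide). Fli1 had 7 of 20, Etv6 5 of 33, Runx1 4 of 11, Ikzf1 2 of 10 and Cebpa 1 of 4, and Spi1 (0 of 4) and Cebpb (0 of 1) had none. Of the 43 regions overlapping adult IRF8, 4 were lost (9.30%, against 21.0% genome-wide). Of the 40 others, 15 were lost (37.5%, against 41.2% genome-wide). The 4 lost regions with IRF8 were at −20.2 kb in Cebpa (chr7:35097848-35100309), +24.7 kb in Runx1 (chr16:92800608-92802215), +19.9 kb in Fli1 (chr9:32521097-32522384) and +8.61 kb in Etv6 (chr6:134043312-134045299). The Etv6 one was the strongest of these in WT, at folds of 5.78 to 7.75 and a mean percentile of 83.0. Lost regions without IRF8 included Ikzf1 at +56.4 kb (chr11:11741669-11743940), at a mean percentile of 74.7, and a run of 4 in Fli1 between +75.1 and +86.4 kb. The rest were at +7.23, +107 and +156 kb in Runx1, +12.1 kb in Ikzf1, −19.1, +16.8, +60 and +89.8 kb in Etv6, and −21.2 and +6.44 kb in Fli1.

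Presence in KO was uneven between the libraries. Of the 83 regions, 27 had a peak in both KO libraries (32.5%, against 23.8% genome-wide), 31 in replicate 1 alone and 6 in replicate 2 alone. Dropping KO replicate 2 gave 25 lost regions (30.1%, against 37.3% genome-wide) and dropping KO replicate 1 gave 50 (60.2%, against 72.9%). Taking either WT library alone gave 60 lost, of 138 regions for replicate 2 (43.5%, against 59.5%) and of 148 for replicate 1 (40.5%, against 54.5%). Keeping peaks with a −log10 p of at least 10 gave 16 lost of 41 (39.0%, against 50.7%), and the genes differed. Etv6 then had 9 of 21, Runx1 4 of 6, Spi1 and Ikzf1 1 of 3 each, Cebpa 1 of 2 and Fli1 0 of 6. In the Spi1 window the strongest H3K27ac region of each library had a percentile of 99.6 and 96.7 in WT and of 97.1 and 95.6 in KO. Spi1 nevertheless had no KO consensus region, because the regions of the 2 KO libraries, 8 in replicate 1 and 4 in replicate 2, did not overlap each other. All 4 of its WT regions were thus absent from the KO consensus. H3K27ac regions covered 18.4% and 24.7% of the Spi1 window in WT and 10.4% and 3.38% in KO. These shares come from lists of different length and were not tested. None of the 29 KO consensus regions lacked a WT peak (10.9% genome-wide). With KO replicate 2 alone 11 of 64 did (17.2%, against 55.5%), and with KO replicate 1 alone 32 of 139 (23.0%, against 55.9%). Leaving out either WT library gave 1 of 29 (3.45%, against 17.6% and 14.1%).

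H3K4me1, the broad enhancer mark, was present across all 7 genes in both genotypes. All 51 WT regions had a peak in at least 1 KO library, so 0 were lost (13.0% genome-wide), and 48 had one in both (94.1%, against 69.3%). Of the 58 KO regions, 6 had no WT peak (10.3%, against 23.8% genome-wide). Runx1 held 4 of these, at +160, +166, +205 and +217 kb, with folds of 1.81 to 2.67. Cebpb and Fli1 held 1 each, at −16.5 kb and −14.7 kb. The KO H3K4me1 lists held 113370 and 189351 regions and the WT lists 104818 and 129859. With 1 library left out, 1 or 2 WT regions were lost (1.96% to 3.92%, against 19% to 44.1% genome-wide). KO regions with no WT peak were then 8 to 29, from 8 of 58 without WT replicate 2 (13.8%, against 32.6%) to 29 of 114 without KO replicate 1 (25.4%, against 56%).

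Related factor genes were read in the same way for comparison. Among 11 other ETS genes, 6 of 10 tested were called higher at later stages, and 8 had an adult IRF8 consensus region, from 0 in Erg to 10 in Elf1. All 3 other RUNX-complex genes tested were called, against 1 of 3 further C/EBP genes (Cebpg) and 1 of 4 further Ikaros genes (Ikzf2). Of 10 progenitor factors, 6 of 9 tested were called, Tal1 having 4 adult regions and Gfi1 none. Of 6 lymphoid and erythroid factors, 1 of 4 tested was called, Ebf1 with 1 adult region. No gene of these lists was called lower. All of these counts stand beside the 46.1% of the windows tested that were called. KO PU.1 regions with no WT peak were 2 of 5 in the ETS list, 0 of 2 in C/EBP, 4 of 5 in RUNX, 0 of 1 in Ikaros, 1 of 4 among progenitor factors and 0 of 1 among lymphoid and erythroid factors (16.5% genome-wide). Lost WT PU.1 regions were 1 of 7, 1 of 4, 0 of 1, 0 of 1 and 0 of 5 in the first 5 of these lists, and the last had no WT region (25.1% genome-wide).

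By the percentile of the strongest region in each of the 25 libraries, the genes most like Spi1 were Clec4a2, a C-type lectin receptor of myeloid cells, at a mean absolute difference of 4.73 percentile points, Scamp5 at 5.13 and Mapk3 at 5.71. Of the other 6 genes Ikzf1 was nearest, at 8.97, and Cebpb farthest, at 32.7, with a median of 42.7 over all gene windows.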

How the data were processed

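Peak lists of 25 CUT&RUN libraries were read as deposited, 1 list per library with no pooling. Per the submitters' processing notes, the authors used bcl2fastq, Trim Galore, Bowtie2, deepTools and MACS2 on mm10. Per the file headers, peaks were called against an IgG control with MACS 2.2.7.1 (IRF8, PU.1) or 2.2.6 (histone marks) at a q-value of 0.01, with PU.1 replicate 2 of both genotypes at 0.05 and another control. H3K4me1 was called broad at a p-value of 0.01. The authors' lists give a pileup (signal height), a −log10 p and a fold enrichment over the control for each peak, and these are MACS's own values. Controls and callers differ between groups, so folds and percentiles set side by side describe each list and are not read as changes between groups. IgG controls entered only through the authors' calls.

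Each distinct chromosome, start and end was counted once. Windows were gene bodies of GENCODE release 21 (mouse) on GRCm38 with 20 kb on each side, and an overlap was at least 1 bp. Sequences came from the RefSeq copy of that assembly. The rule named, for each gene, the adult IRF8 region of highest mean percentile among those with PU.1, and the PU.1 and H3K27ac regions lost or gained in KO; in the other gene lists it named those with the most and the fewest adult IRF8 regions. The 3 genes most like Spi1 had the smallest mean absolute percentile difference. Other regions singled out, at P9, over gene starts or without a peritoneal peak, were chosen after their values were seen. The stage test was an exact Jonckheere-Terpstra test with Benjamini-Hochberg adjustment at 0.05, checked on simulated counts. There, unchanged windows had the same expected count in every library, so the check does not cover lists whose length differs with stage. Same-numbered replicates were compared in 9 same-numbered pairs of libraries, with correlations of −0.0502 to 0.22. The 2 over 0.1 were both between P14 and adult libraries, replicate 2 (0.22) and replicate 3 (0.169). Whether the numbers pair the libraries was thus not settled, and the main stage test treats them as unpaired. Alternatives were other windows, thresholds, overlaps and absence rules, lists of equal length, the replicate number as a block, batch 1 alone, and each library left out. The members and gene lists were chosen with earlier results of these data known. Work used Python 3.11.15, NumPy 2.4.6, pandas 2.3.3 and SciPy 1.17.1.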

Additional observations from a re-analysis of the deposited data

Results flagged for a closer look

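In the group of 4 P9 libraries, 5 of 14 measures of the 7 genes had 1 library far from the rest, by a gap past Dixon's 95% limit for a group of 4. Chance alone flags about 1 in 20 groups, but that rate does not apply to the Spi1 and Ikzf1 measures, where 1 value above 0 stands against 3 zeros and passes the limit by construction. The Cebpa and Cebpb measures were 0 in all 4 libraries and had no range to test. Spi1 had 1 region in P9 replicate 1, at percentile 31.6, and none in the other P9 libraries. Ikzf1 had 3 regions in P9 replicate 3, the strongest at percentile 39.8, and none in the others. The strongest Etv6 region lay at percentile 58.4 in P9 replicate 4, the lowest of the 4 libraries.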

How the results depend on the processing

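Of the 7 genes, 6 were called in the stage test (46.1% of the windows tested), all 7 with 50 kb flanks (62.5%) and 5 with the gene body alone (18.4%). With a −log10 p of at least 10, 3 were called (16.8%). With lists of equal length 0 were called (0 of 3897 windows), and Cebpa and Cebpb, left without a region, were not tested. The net ordered pairs with those lists were −12 for Runx1 and −4 for Fli1. With the replicate number as a block, the exact stage test called 0 of the 7 and 0 of 16417 windows, with 5 and 5171 at an unadjusted p of 0.05 or less. Leaving out 1 library in the unblocked test gave 2 to 6 called, and the share of all windows called moved too. It was 9.74% to 12.2% where 2 were called, 10.8% for 4, 25.9% for 5 and 32.9% to 49.6% for 6. In the counts that follow, each share of the genes' regions is set against the share of all regions called under the same setting, genome-wide. Lost PU.1 regions numbered 5 of 23 (21.7% against 25.1%), 2 of 7 with a −log10 p of at least 10 (28.6% against 28.1%), 11 of 23 when absence from the KO consensus was enough (47.8% against 48%), and 26 of 54 when a peak in 1 library was enough (48.1% against 62.6%). They numbered 7 to 24 with a library left out (25.9% to 48.0%, against 35.6% to 58.7%). Gained PU.1 regions numbered 0 of 18 (against 16.5%), and under the same settings 2 of 6 (33.3% against 19.6%), 6 of 18 (33.3% against 39.1%) and 6 of 35 (17.1% against 62.4%). They numbered 1 of 15 with lists of equal length (6.67% against 17.7%) and 0 to 6 with a library left out (genome-wide 24.3% to 58.2%). Lost H3K27ac regions numbered 19 of 83 (22.9% against 34.0%), 32 of 108 with 50 kb flanks (29.6% against 34%), 59 of 83 with absence from the consensus (71.1% against 78.4%), 12 of 48 with equal lengths (25% against 35.3%) and 83 of 179 with 1 library enough (46.4% against 63.7%). They numbered 16 of 41 with a −log10 p of at least 10 (39.0% against 50.7%), and 25 to 60 with a library left out (30.1% to 60.2%, against 37.3% to 72.9%). Gained H3K27ac regions numbered 0 of 29 (against 10.9%), 1 of 29 with absence from the consensus (3.45% against 19.7%), 2 of 19 with equal lengths (10.5% against 13.5%), 43 of 170 with 1 library enough (25.3% against 60.3%), and 1 to 32 with a library left out (3.45% to 23.0%, against 14.1% to 55.9%). Lost H3K4me1 regions numbered 0 of 51 (against 13.0%), 1 of 73 with 50 kb flanks (1.37% against 13%), 3 of 51 with absence from the consensus (5.88% against 30.3%), 4 of 91 with 1 library enough (4.4% against 47%), and 1 to 2 with a library left out (1.96% to 3.92%, against 19% to 44.1%). Gained H3K4me1 regions numbered 6 of 58 (10.3% against 23.8%), then 10 of 85 (11.8% against 23.8%), 13 of 58 (22.4% against 44.4%) and 31 of 103 (30.1% against 58.6%) under those settings. They numbered 1 of 49 with equal lengths (2.04% against 17.3%) and 8 to 29 with a library left out (13.8% to 25.4%, against 32.6% to 56%). Adult regions shared with peritoneal macrophages numbered 34 of 52 (65.4% against 39.5%), 14 of 32 with a −log10 p of at least 10 (43.8% against 28.8%), 6 of 34 with a peak in every library (17.6% against 17.4%) and 14 of 25 with equal lengths (56.0% against 38.6%). They numbered 7 to 34 with a library left out, the lowest being 7 of 52 without peritoneal replicate 2 (13.5% against 13.1%) and 8 of 52 without peritoneal replicate 1 (15.4% against 12.2%). Those with PU.1 numbered 22 of 52 (42.3% against 27%), 6 of 32 with a −log10 p of at least 10 (18.8% against 20%), and 19 to 35 with a library left out (46.8% to 67.3%, against 29.8% to 44.1%). The causes were not tested, beyond the fewer libraries or regions that these settings leave. List length and the number of libraries limit every count of absence: a region below a list's threshold is not shown to be empty.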
